A study of Mus musculus with 4 samples.

Results

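The genes described are 9 transporters that carry bile acids, bilirubin conjugates, phospholipid and other organic anions through the hepatocyte, taken by symbol from the 32285 genes of the deposited feature lists. Of these 9, 5 serve uptake from blood (Slco1a1, Slco1a4, Slco1b2, Slco2b1 and Slc10a1) and 4 serve export (Abcb11, Abcb4, Abcc2 and Abcc3). Their identifiers in the files are ENSMUSG00000041698 (Slco1a1), ENSMUSG00000030237 (Slco1a4), ENSMUSG00000030236 (Slco1b2), ENSMUSG00000030737 (Slco2b1), ENSMUSG00000021135 (Slc10a1), ENSMUSG00000027048 (Abcb11), ENSMUSG00000042476 (Abcb4), ENSMUSG00000025194 (Abcc2) and ENSMUSG00000020865 (Abcc3). They were measured by single-nucleus RNA sequencing, which counts transcripts of isolated nuclei in droplets, in non-tumor liver of male mice aged 12 months. Every mouse had received the liver carcinogen diethylnitrosamine (DEN) at 25 mg/kg at 14 days of age, so the controls carry that exposure too. Of the 4 libraries, 2 carry the label Brca1-WT and the others the label Brca1-KO (called the KO-labelled libraries here), where Brca1 is a DNA repair gene. The titles number the libraries as bio reps 1 and 2 of each genotype and do not say which exons the deletion covers, what drives it or how many mice a library holds, so p-values measure the spread between these libraries.

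A hepatocyte faces blood on its basolateral side and the bile canaliculus on its apical side. Bile acids are taken up from blood by Slc10a1, the sodium-dependent taurocholate cotransporter, and by organic anion transporting polypeptides encoded by Slco genes, which also take up bilirubin, steroid conjugates, thyroid hormones and many drugs. Abcb11, the bile salt export pump, moves bile salts into the canaliculus, Abcb4 flips phosphatidylcholine into bile, and Abcc2 exports bilirubin glucuronides and glutathione conjugates. Abcc3 lies in the basolateral membrane and returns conjugates to blood. Hepatocytes differ along the line from the portal vein, where blood enters the lobule, to the central vein, where it leaves.

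Slco1a1, Slco1a4 and Slco1b2 lie on chromosome 6. They are shown because the first pair had the lowest relative levels in the KO-labelled libraries, whereas Slco1b2 had the steepest difference between zones. The windows below hold the 250 bases before each annotated start, 5′ to 3′ on the strand of the gene, from RefSeq on GRCm38.p6, at chr6:141946963-141947212 (minus strand), chr6:141856221-141856470 (minus strand) and chr6:141629268-141629517 (plus strand). Capitals mark matches, on either strand, to the nuclear receptor half-site AGGTCA, the TATA box letters TATAAA, the HNF1 half-site GTTAAT or the STAT5 site TTCNNNGAA.
Slco1a1: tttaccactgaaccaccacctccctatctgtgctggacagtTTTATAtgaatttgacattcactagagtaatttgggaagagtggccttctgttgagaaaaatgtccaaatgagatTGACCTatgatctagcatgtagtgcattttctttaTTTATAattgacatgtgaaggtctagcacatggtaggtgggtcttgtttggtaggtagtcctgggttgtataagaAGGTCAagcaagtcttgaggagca
Slco1a4: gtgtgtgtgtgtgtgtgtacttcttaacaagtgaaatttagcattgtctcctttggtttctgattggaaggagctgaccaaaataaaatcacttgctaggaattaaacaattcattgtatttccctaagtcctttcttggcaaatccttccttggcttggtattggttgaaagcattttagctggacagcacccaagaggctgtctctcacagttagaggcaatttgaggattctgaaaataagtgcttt
Slco1b2: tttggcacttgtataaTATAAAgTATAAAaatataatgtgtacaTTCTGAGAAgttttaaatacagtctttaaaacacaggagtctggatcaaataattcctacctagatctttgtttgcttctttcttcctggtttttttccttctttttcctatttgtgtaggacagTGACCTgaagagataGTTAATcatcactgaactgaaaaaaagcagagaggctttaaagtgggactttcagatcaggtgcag
The Slco1a1 window held AGGTCA at 134 and 24 bases before the start and TATAAA at 209 and 99 bases, and no match was found in the Slco1a4 window. In the Slco1b2 window TTCNNNGAA began 206 bases, AGGTCA 81 bases and GTTAAT 66 bases before the start, with TATAAA at 234 and 227 bases. Among all 32851 such windows, 14.0% held AGGTCA, 12.4% TATAAA, 7.02% TTCNNNGAA and 6.43% GTTAAT, so these letters are common. A match describes letters and not binding. Of the 9 genes, 8 had windows in that table, which numbered 11 because Slco2b1 and Slc10a1 have several starts.

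The libraries held 5209 to 7833 barcodes and 36662067 to 45638888 unique molecular identifiers (UMIs). After filters, 2827 and 4029 hepatocyte-like nuclei remained in Brca1-WT replicates 1 and 2, and 2579 and 4099 in KO-labelled libraries 1 and 2. Pairs of libraries shared 9 to 20 barcodes. Levels below are counts scaled to 1000000 UMIs of the named nuclei (CPM). Brca1 read 13.1 and 12.3 CPM in Brca1-WT hepatocyte-like nuclei and 18.6 and 5.77 in the KO-labelled ones, so it was not lower in both. This goes against the label of KO-labelled library 1, although a 3′ assay may read exons outside the deletion, whose extent the labels leave out. KO-labelled library 2 also stood apart, since 88.4% of its hepatocyte-like nuclei fell into 3 clusters that held 0.620 to 3.72% of those of the other libraries. All 12 hepatocyte markers were detected in every library. Sets of 4 values run Brca1-WT replicate 1, Brca1-WT replicate 2, KO-labelled library 1, KO-labelled library 2. Levels of different genes are not ranked, because counts depend on where a transcript can be primed.

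Along the lobule, 5 of the 9 transporters rose toward the central vein, 1 fell, and 3 did not pass the test. Slco1b2 was about 3-fold higher in pericentral than in periportal hepatocyte-like nuclei, while Abcc3, Abcb4, Slco1a4 and Abcc2 were 1.85-fold to 1.32-fold higher. Slco2b1 was the only one to pass as lower at the pericentral end. For this comparison the nuclei of each library were ranked by a score of zone landmark genes that contains no transporter, and cut into 3 equal groups, called periportal, middle and pericentral. Between the outer groups 26.9% of 12688 genes tested passed at an adjusted p below 0.05, 13.2% higher and 13.7% lower at the pericentral end, and 37.4% had an unadjusted p below 0.05 (edgeR quasi-likelihood test with library as a term). Glul, the pericentral glutamine synthetase used in the score, read 529.6, 349.9, 233 and 282 in the pericentral group and 15.4, 16.3, 8.39 and 9.23 in the periportal group.

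Among the uptake genes, Slco1b2, the hepatocyte transporter of unconjugated and conjugated bilirubin and bile acids in mouse, read 1319, 771, 561 and 1880.5 in periportal nuclei and 3577, 2729, 2184 and 5004 in pericentral nuclei. The middle group lay between the outer groups in each library, at 2599, 1792, 1369 and 3243. The ratio was 3.20 ± 0.611 (SD, n = 4) and the log2 fold change 1.67 (standard error, SE, 0.10, edgeR adjusted p = 1.7e-05). Slco1a4, a carrier of bile acids and cardiac glycosides, read 982, 619, 422 and 429 in periportal and 1265, 925, 626 and 477 in pericentral nuclei, a ratio of 1.35 ± 0.181. All 4 libraries were higher at the pericentral end, with a log2 fold change of 0.43 (SE 0.07, edgeR adjusted p = 0.0013).

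Slco1a1, an uptake carrier of steroid sulfates and bile acids, read 657, 322, 213 and 103 in periportal nuclei and 689, 577, 378 and 146 in pericentral nuclei. Its ratio was 1.05 in Brca1-WT replicate 1 and 1.42 to 1.79 in the others. It did not pass, with a log2 fold change of 0.57 (SE 0.15, edgeR adjusted p = 0.055), and without Brca1-WT replicate 1 it passed with 0.75 (edgeR adjusted p = 1.5e-04). It also passed with DESeq2 (adjusted p = 2.0e-04), after thinning (edgeR adjusted p = 0.010) and with nuclei cut into 2 groups (edgeR adjusted p = 0.048). Slco2b1, an organic anion carrier found in many tissues, ran the other way, with 138, 162, 115 and 117 in periportal and 125, 123, 85.2 and 100.2 in pericentral nuclei. Every library was lower at the pericentral end, with a log2 fold change of −0.29 (SE 0.06, edgeR adjusted p = 0.0048). Because Slco2b1 was also detected in other cells of the lobule, the RNA those cells could have left in hepatocyte nuclei was measured: markers of stellate cells in the periportal groups stood at 0.187 to 0.646% of their level in stellate-like nuclei, a share that would carry 1.18 to 3.67 CPM of Slco2b1. Slc10a1, the main sodium-dependent bile acid carrier, had 239, 156, 127 and 193 in periportal and 270.4, 150.1, 116 and 209.6 in pericentral nuclei. It was higher in 2 libraries and lower in 2, with a log2 fold change of 0.04 (SE 0.06, edgeR adjusted p = 0.71).

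Of the export genes, Abcb4 gave nearly the same ratio in each library, 1.57, 1.62, 1.63 and 1.62. It read 894, 738, 632 and 547 in periportal nuclei and 1402, 1199, 1029 and 884 in pericentral nuclei (log2 fold change 0.69, SE 0.05, edgeR adjusted p = 3.2e-06). Abcc2 read 1960.5, 1748, 1747 and 1991 in periportal and 2588, 2430.4, 2273 and 2484 in pericentral nuclei. Its rise lay between the periportal and the middle group, which already read 2576, 2318, 2255 and 2429, and its log2 fold change was 0.40 (SE 0.05, edgeR adjusted p = 2.1e-04). Abcc3 read 54.6, 150.01, 59.97 and 144 in periportal and 109.6, 258, 128 and 223 in pericentral nuclei, a ratio of 1.85 ± 0.265 (log2 fold change 0.87, SE 0.07, edgeR adjusted p = 1.2e-05). Abcb11 read 499, 591, 452 and 421 in periportal and 583, 558, 593 and 495 in pericentral nuclei, higher in 3 libraries and lower in Brca1-WT replicate 2. It did not pass (log2 fold change 0.20, SE 0.07, edgeR adjusted p = 0.054), and without that replicate it passed with 0.28 (edgeR adjusted p = 0.013). It also passed without the low-count filter (edgeR adjusted p = 0.0015) and with RLE scaling (edgeR adjusted p = 0.047), and not in the other settings. The 6 transporters that passed also did so under each of 15 other settings except the fit without a library term, where none of them passed.

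**Figure D1:**
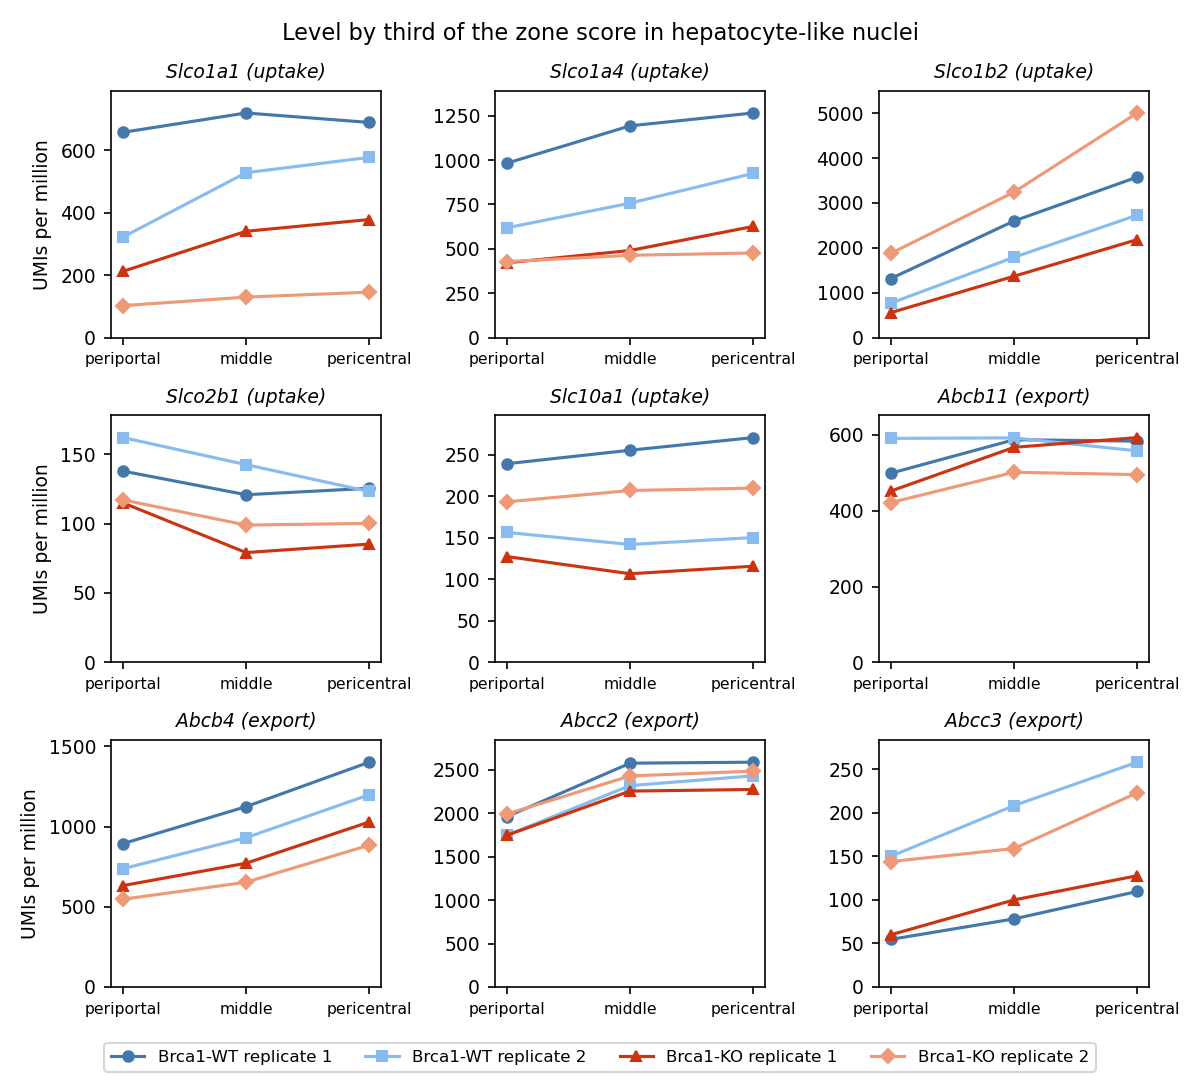
Level of each transporter gene, in CPM, in the periportal, middle and pericentral groups of hepatocyte-like nuclei, with 1 line per library and each vertical axis starting at 0. Slco1b2 rises in all 4 libraries, to 2184 to 5004 at the pericentral end, and Slco2b1 is lower there than at the periportal end in all 4.

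Median UMIs per nucleus in the periportal and pericentral groups were 8243 and 9030.5, 5893 and 6211, 9486.5 and 9463, and, with the widest gap, 6553 and 8778.5 in KO-labelled library 2. With each nucleus thinned to 1000 UMIs, the log2 fold changes were 1.48 for Slco1b2, 0.73 for Abcc3, 0.59 for Abcb4, 0.40 for Slco1a4 and −0.45 for Slco2b1, of which the last moved by more than 1.5 times. Between 13.3 and 16.0% of nuclei lay within 0.1 SD of a boundary between groups. The zone difference did not pass a test of difference between genotypes for any of the 9 genes, whose unadjusted p ran from 0.075 (Abcb11) to 0.838 (Abcc3). In that test 0% of 13384 genes passed in edgeR, 3.51% had an unadjusted p below 0.05, and DESeq2 called 2.

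In the comparison by genotype, no transporter passed in hepatocyte-like nuclei, where edgeR called 0% of 15138 genes and 3.32% had an unadjusted p below 0.05. DESeq2 called 23 genes. Slco1a1 and Slco1a4 were the only transporters with an unadjusted p below 0.05, both lower in the KO-labelled libraries, at 0.376 and 0.506 of the Brca1-WT mean. In 5 of the 9 genes (Slco1a1, Slco1a4, Slco2b1, Abcb11 and Abcb4) both KO-labelled libraries lay below both Brca1-WT libraries, and in none did both lie above. Over all genes tested 31.4% showed groups that did not overlap, 19.8% lower and 11.6% higher. With 2 libraries against 2 an exact permutation test cannot go below 0.33, so single genes rest on the model fit. On simulated data that fit recovered 1% of 2-fold and 32% of 4-fold changes, so a gene that did not pass may still differ. The genotype comparison was not matched by zone. A cluster with Glul and Slc22a3 among its leading genes held 35.4, 14.3, 16.5 and 0.829% of the hepatocyte-like nuclei of the libraries. Another with Glul held 0.141, 0.149, 0.0775 and 8.73%. The effect of this on the genotype values was not tested.

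Slco1a1 read 689.7, 477, 311 and 128 in hepatocyte-like nuclei. The means were 583 ± 150.3 in Brca1-WT and 219.6 ± 129 in the KO-labelled libraries (SD, n = 2 each), and the groups did not overlap. The log2 fold change was −1.38 (SE 0.46, edgeR unadjusted p = 0.030, adjusted p = 0.99). It was −0.89 without KO-labelled library 2 and −2.08 without KO-labelled library 1, each leaving 1 library in that group. Slco1a4 read 1151, 769, 513 and 459, with both KO-labelled libraries close together. Its log2 fold change was −0.93 (SE 0.29, edgeR unadjusted p = 0.022, adjusted p = 0.99). Over the alternative settings it stayed between −1.18 and −0.61, the latter without Brca1-WT replicate 1. Both belong to a family of close paralogs: 1.64% of the 50-base words of Slco1a1 transcripts and 1.61% of those of Slco1a4 occur in other genes, among them Slco1a5 and Slco1a6, and how such reads were counted is not stated. For Abcb4 the share was 2.83%, with Abcb1a and Abcb1b among the other genes.

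Slco1b2, their neighbour on the same chromosome, showed another order. Its levels were 2528, 1774, 1373 and 3538, so that the KO-labelled libraries held both the lowest and the highest value. The log2 fold change was 0.26 (SE 0.54, edgeR adjusted p = 0.99), and −0.63 without KO-labelled library 2. In that library Slco1b2 stood above every other library in each of the 3 zone groups, whereas Slco1a1 stood below every other library in each. Slco2b1 read 128, 142, 93.0 and 105, without overlap but with a log2 fold change of −0.40 (SE 0.19, edgeR adjusted p = 0.99). Slc10a1 read 255, 149, 116 and 204. Its groups overlapped, with a log2 fold change of −0.27 (SE 0.41, edgeR adjusted p = 0.99), and the sign turned when Brca1-WT replicate 1 (0.16) or KO-labelled library 1 (0.11) was left out.

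The canalicular exporters stood between −0.42 and 0.01 by genotype. Abcb4 read 1146, 958, 811 and 713, without overlap, with a log2 fold change of −0.42 (SE 0.24, edgeR adjusted p = 0.99). Abcb11 read 558, 579.9, 538 and 476, with a log2 fold change of −0.12 (SE 0.21, edgeR adjusted p = 0.99), which was −0.065 without KO-labelled library 2 and −0.074 without Brca1-WT replicate 2. Abcc2 read 2388, 2169, 2094 and 2324. Its groups overlapped and its log2 fold change was 0.01 (SE 0.28, edgeR adjusted p = 1.0). Abcc3, the basolateral exporter, varied within both genotypes, with 81.4 and 206 in Brca1-WT and 96.0 and 179.6 in the KO-labelled libraries (log2 fold change −0.00, SE 0.55). The sign of Abcc2 and of Abcc3 depended on the scaling.

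**Figure D2:**
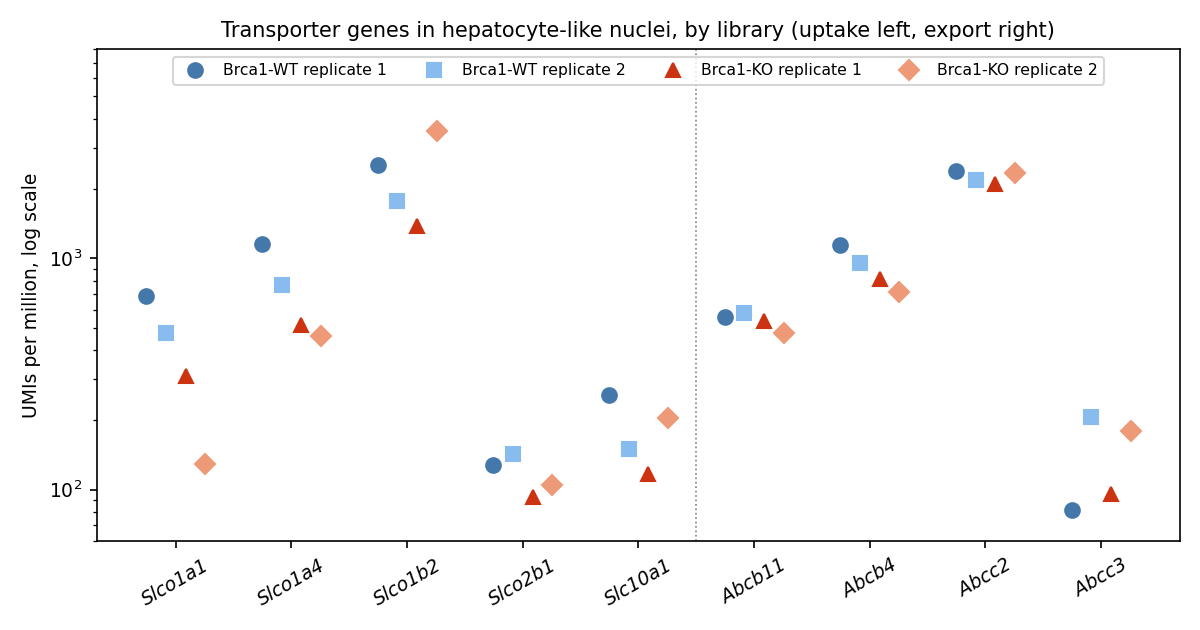
Level of each transporter gene in all hepatocyte-like nuclei, in CPM on a log scale, with 1 point per library. Slco1a1 runs from 689.7 to 128 and Slco1a4 from 1151 to 459, with both KO-labelled libraries below both Brca1-WT libraries, while Slco1b2 has its highest value, 3538, in KO-labelled library 2.

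Since most hepatocyte nuclei of KO-labelled library 2 lay in clusters of their own, the few nuclei of the other libraries in those clusters were read separately. Slco1a1 was 754 in 44 such nuclei of Brca1-WT replicate 1 and 453 in 150 of Brca1-WT replicate 2, close to the 689 and 478 of the remaining nuclei of those libraries. Within KO-labelled library 2 it was 130.0 in 3622 nuclei inside the clusters and 104 in 477 outside. In KO-labelled library 1 it was 363 in 16 nuclei inside and 311 outside. Slco1b2 was 2751 and 1845 in the nuclei of the Brca1-WT libraries inside the clusters, against 2525 and 1771 outside. It was 1790.5 inside and 1371 outside in KO-labelled library 1, and 3605 inside and 2565 outside in KO-labelled library 2. Slco1a1 in nuclei of the other 3 libraries in these clusters was thus above its level in KO-labelled library 2. Slco1b2 was higher inside than outside in all 4 libraries when the 3 clusters were pooled. In the cluster led by Hsd17b6 it was below the outside level in each library, at 1680, 1342, 834 and 2099 (16, 102, 7 and 1714 nuclei). It read 3007, 2595, 1800 and 4344 in the cluster led by Car3 (24, 42, 7 and 1550 nuclei). In the remaining cluster, with Glul among its leading genes, it read 4805, 3728, 4445 and 5972, from only 4, 6 and 2 nuclei beside 358. Values from so few nuclei are rough. Nuclei inside and outside were not matched by zone.

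Set side by side, the uptake genes had a median log2 fold change of −0.40 between genotypes and the export genes −0.06, beside −0.01 over all genes. Without KO-labelled library 2 these were −0.78 and −0.23. Against the Brca1-WT mean of each gene, the median log2 ratio of uptake was 0.24, −0.29, −0.80 and −0.37 in the 4 libraries. Brca1-WT replicate 2 thus lay close to KO-labelled library 2. For export the medians were 0.02, −0.02, −0.25 and −0.12. In the zone comparison the medians were 0.43 for uptake and 0.55 for export, beside −0.00 over all genes. The uptake genes spread more widely than the export genes in both comparisons: from −1.38 to 0.26 against −0.42 to 0.01 by genotype, and from −0.29 to 1.67 against 0.20 to 0.87 by zone. Summed UMIs of the 5 uptake genes over those of the 4 export genes gave 1.14, 0.846, 0.680 and 1.20 in the 4 libraries, with overlap between genotypes. In these sums genes with more counts weigh more, and counts depend on priming. Abcc2 read 2388, 2169, 2094 and 2324 CPM of export sums of 4174, 3913, 3538 and 3692. Within each library the ratio was higher in the pericentral than in the periportal group, going from 0.979 to 1.27, from 0.629 to 1.01, from 0.497 to 0.843 and from 0.877 to 1.45. Slco1b2 gave 38.0 to 69.1% of the uptake sum in the periportal and 60.4 to 84.3% in the pericentral groups. Without it the ratio went from 0.592 to 0.502, from 0.390 to 0.399, from 0.303 to 0.300 and from 0.271 to 0.228, so the higher pericentral ratio rested on that gene.

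**Figure D3:**
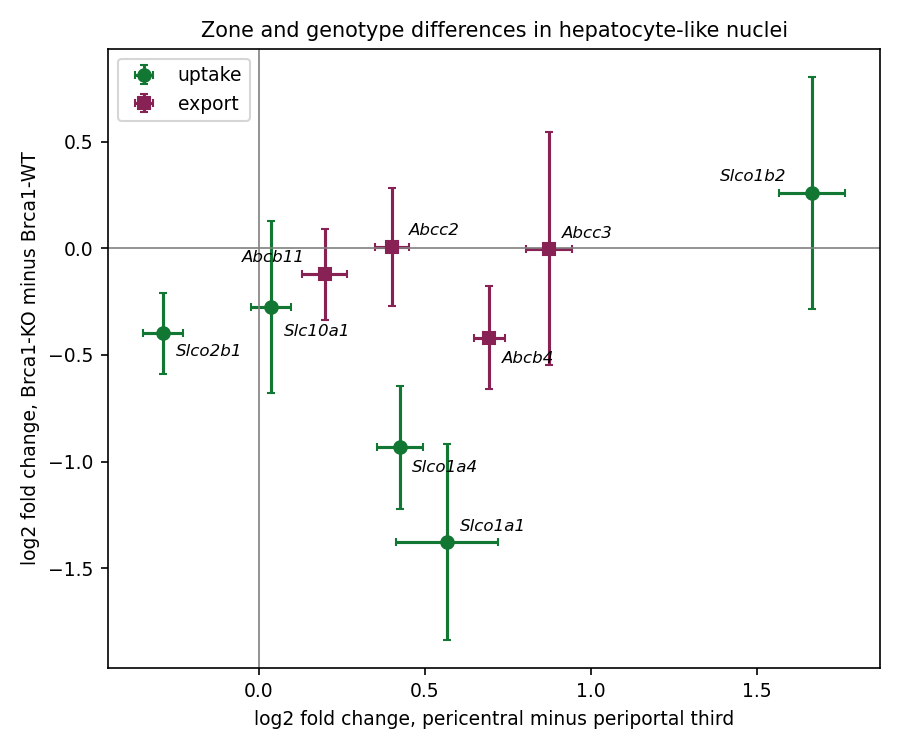
Log2 fold change between pericentral and periportal groups (horizontal) and between Brca1-KO and Brca1-WT (vertical) for each transporter gene, with bars of 1 standard error. Slco1b2 lies far to the right, at 1.67, and Slco1a1 and Slco1a4 lie lowest, at −1.38 and −0.93, while the export genes lie between −0.42 and 0.01 on the vertical axis.

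Among the other cell classes, 2 transporters had levels of their own: Slco2b1 in stellate-like and endothelial-like nuclei, and Abcc3 in macrophage-like nuclei. Free RNA from broken hepatocytes reaches every droplet, so each gene's level in a class was divided by its level in hepatocyte-like nuclei of the same library and set beside 34 hepatocyte reference genes for plasma proteins and liver enzymes. Slco2b1 read 568, 788, 631 and 514 in stellate-like and mesenchymal-like nuclei, which was 4.45 to 6.79 times its level in hepatocyte-like nuclei. The reference genes stood at 0.0742 to 0.905 times theirs, and Slco2b1 exceeded all 34 in each of the 4 libraries. In endothelial-like nuclei it read 239.6, 351, 287 and 160.0, or 1.53 to 3.08 times its hepatocyte level, again above all 34 in each library. Stellate markers in endothelial-like nuclei stood at 2.61 to 3.54% of their level in stellate-like nuclei, a share that would carry 14.9 to 22.3 CPM of Slco2b1. In macrophage-like nuclei Slco2b1 read 15.3, 19.5, 18.0 and 30.1, or 0.120 to 0.287 of its hepatocyte level, within the reference range. Among these 4 classes the order of its levels was stellate-like, endothelial-like, hepatocyte-like and macrophage-like in each library, with no overlap between neighbours over the libraries.

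Abcc3 read 392, 469.8, 514 and 649.7 in macrophage-like nuclei, the class that holds Kupffer cells, the resident macrophages of the liver. This was 2.28 to 5.36 times its hepatocyte level and above all 34 reference genes in each library. In monocyte-like and dendritic-like nuclei it read 134, 143, 86.0 and 111, above all reference genes in 1 library. Markers of macrophages there stood at 13.9 to 17.1% of their level in macrophage-like nuclei, a share that would carry 54.4 to 95.8 CPM. Abcc3 was low in stellate-like nuclei, with 11.02, 29.6, 7.35 and 33.9. The macrophage marker share there would carry 22.9 CPM in Brca1-WT replicate 1, 24.6 in Brca1-WT replicate 2 and 35.4 in KO-labelled library 1. In Brca1-WT replicate 1 and KO-labelled library 1 this was more than the level read, so such a share can overstate what is carried. In hepatocyte-like nuclei, macrophage markers stood at 0.612 to 1.21% of their level in macrophage-like nuclei, a share that would carry 3.15 to 7.85 CPM of Abcc3 beside its 81.4 to 206.

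With each nucleus thinned to 1000 UMIs, 39.7, 51.6, 46.6 and 38.0% of stellate-like nuclei and 19.4, 27.8, 22.9 and 13.6% of endothelial-like nuclei held a Slco2b1 UMI. Macrophage-like nuclei, where Slco2b1 stood within the reference range, gave 1.27, 2.25, 1.62 and 2.96%. For Abcc3 the shares were 29.0, 35.7, 38.9 and 45.1% of macrophage-like nuclei, against 0.837, 1.87, 0.568 and 3.82% of stellate-like nuclei. Median UMIs per nucleus were 1927 to 2226 in stellate-like, 1545 to 1900 in endothelial-like and 1413 to 1704 in macrophage-like nuclei, and the shares before thinning were 61.9 to 72.1% of stellate-like nuclei for Slco2b1 and 44.9 to 56.5% of macrophage-like nuclei for Abcc3.

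The other 7 transporters gave no level above the reference genes in any of the 6 classes compared. Their ratios ran from 0.102 to 0.257 in stellate-like, from 0.121 to 0.364 in endothelial-like and from 0.0983 to 0.338 in macrophage-like nuclei. Slco1a1 followed its hepatocyte level between libraries, with 119, 86.6, 57.5 and 46.8 in endothelial-like, 131, 90.3, 70.1 and 37.9 in macrophage-like and 102, 73.6, 50.4 and 20.6 in stellate-like nuclei. Slco1b2, highest in hepatocytes of KO-labelled library 2, was also highest there in endothelial-like nuclei, with 446, 348, 309 and 933. Levels of these 7 genes outside hepatocytes were not told apart from background. The highest reference ratios were 0.905 in stellate-like, 1.01 in endothelial-like and 1.41 in macrophage-like nuclei, so expression below those ratios would not be seen. Cholangiocyte-like nuclei numbered 4 to 14 a library and were not compared.

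**Figure D4:**
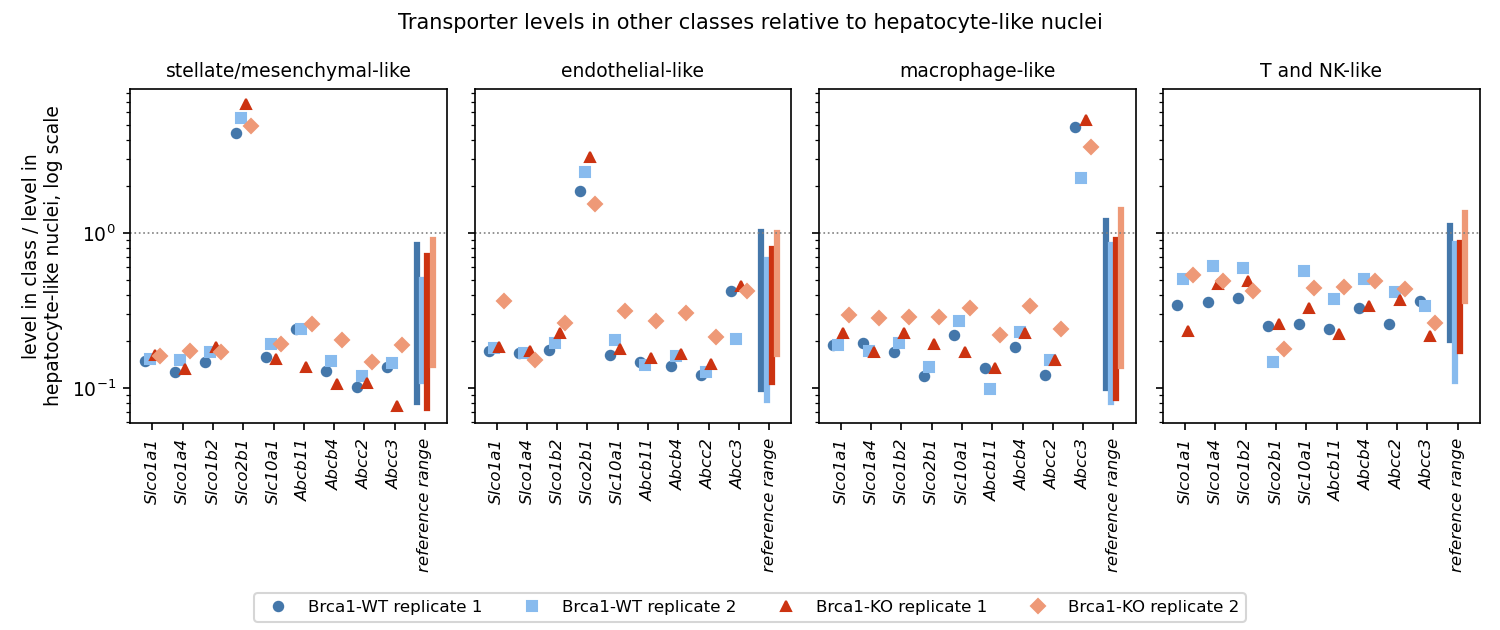
Level of each transporter gene in stellate-like and mesenchymal-like, endothelial-like, macrophage-like, and T and NK-like nuclei, divided by its level in hepatocyte-like nuclei of the same library, on a log scale with a dotted line at 1. Bars at the right of each panel span the 34 hepatocyte reference genes in each library; Slco2b1 (4.45 to 6.79 and 1.53 to 3.08) and Abcc3 (2.28 to 5.36) stand above them.

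Neither gene passed by genotype in these classes. Abcc3 in macrophage-like nuclei had means of 431 ± 54.7 in Brca1-WT and 582 ± 96.0 in the KO-labelled libraries (SD, n = 2 each), without overlap. Its log2 fold change was 0.50 (SE 0.24, edgeR unadjusted p = 0.068, adjusted p = 0.94). Without KO-labelled library 1, which leaves 1 library in that group, it was 0.70. Over all 8284 genes tested there, 0% passed in edgeR, 4.38% had an unadjusted p below 0.05 and 12.5% were higher without overlap. Slco2b1 overlapped between genotypes in stellate-like nuclei, with a log2 fold change of −0.21 (SE 0.22, edgeR adjusted p = 0.99). It overlapped in endothelial-like nuclei too, with −0.31 and a standard error of 0.30 (edgeR adjusted p = 1.0), where KO-labelled library 2 held only 206 nuclei. Leaving out a library gave −0.82 (KO-labelled library 1), −0.58 (Brca1-WT replicate 1), −0.0092 (Brca1-WT replicate 2) and −0.0015 (KO-labelled library 2). In stellate-like nuclei edgeR passed 0% of 9722 genes, 4.03% had an unadjusted p below 0.05, and 33.0% did not overlap between groups (19.9% lower). In endothelial-like nuclei it passed 0% of 11035 genes, 2.61% had an unadjusted p below 0.05, and 33.4% did not overlap. DESeq2 called 0 genes in each of these 3 classes. Abcc3 in endothelial-like nuclei read 34.5, 42.4, 43.6 and 76.3, without overlap, beside 56.9 to 81.4 that the macrophage marker share found there would carry.

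One hepatocyte cluster, led by genes that included Gpc3 (glypican 3, an oncofetal protein of liver tumors), Cyp2a4 and Cyp2b9, held 173 nuclei, of which 150 came from Brca1-WT replicate 1 and 22 from Brca1-WT replicate 2. Except for Abcc2 in replicate 2, the transporters read lower in it than in the other hepatocyte-like nuclei, and the 4 Slco genes lowest. Slco1a1 read 79.1 and 89.0 in the cluster against 716 and 479.5 in the other hepatocyte-like nuclei of the same 2 libraries, ratios of 0.110 and 0.186. Slco1b2 stood at 0.182 and 0.109, Slco2b1 at 0.128 and 0.0388 (1 UMI in replicate 2), and Slco1a4 at 0.248 and 0.259. Slc10a1 stood higher, at 0.607 and 0.744. Among exporters Abcb11 stood at 0.433 and 0.344, Abcb4 at 0.611 and 0.602, Abcc3 at 0.565 and 0.512, and Abcc2 at 0.589 and 1.08. These values describe a cluster found in the same data, so no test was made. The cluster made up 10.9, 4.35 and 0.637% of the periportal, middle and pericentral groups of Brca1-WT replicate 1. Its nuclei were set beside nuclei of all zones, so the ratios are not matched by zone. Slco1b2, for example, had a pericentral over periportal ratio of 2.72 and 3.54 in Brca1-WT replicates 1 and 2. Cdh1, a periportal landmark of the zone score, was also among the leading genes of the cluster. Without the cluster the log2 fold change of Slco1a1 between genotypes was −1.42.

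**Figure D5:**
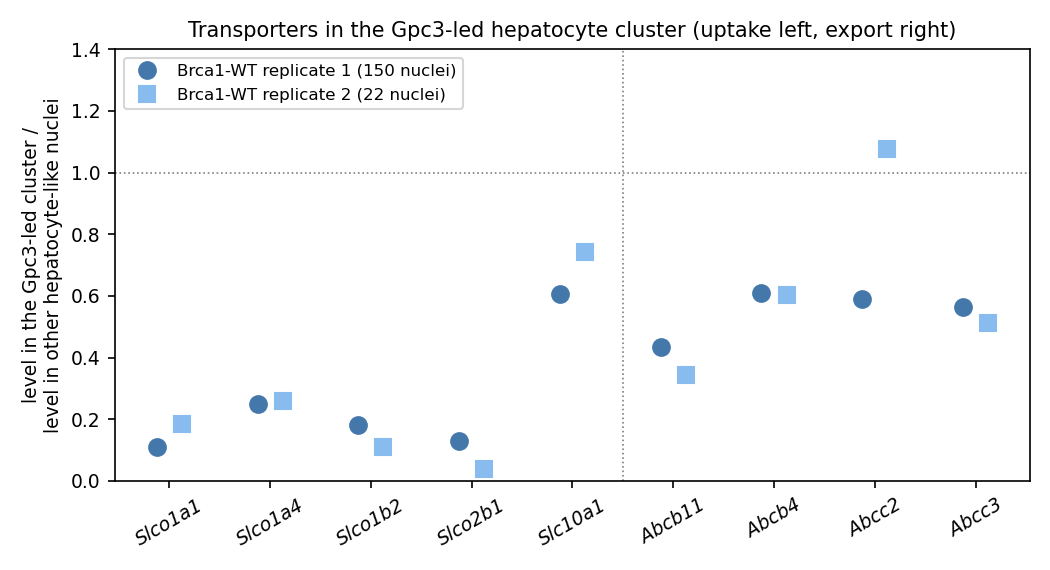
Level of each transporter gene in the Gpc3-led cluster divided by its level in all other hepatocyte-like nuclei of the same library, for the 2 Brca1-WT libraries (150 and 22 nuclei), with a dotted line at 1. The 4 Slco genes lie between 0.0388 and 0.259, and the other transporters between 0.344 and 1.08. The nuclei compared were not matched by zone.

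Over the 12 sums of library by zone group, Slco1a1 and Slco1a4 varied together (Pearson r = 0.90 of log2 levels), as did Slco1b2 and Abcc2 (0.90), while Slco1a1 and Slco1b2 did not (−0.02). Outside the transporters, the gene most like Slco1b2 was Rgn, which encodes regucalcin (0.98), and that most like Slc10a1 was Cyp3a25, a cytochrome P450 (0.98). Abcc2 was most like Cyp2c29, another cytochrome P450 (0.98), Slco1a1 most like Mylk, a myosin kinase (0.97), and Slco2b1 most like Cda, cytidine deaminase (0.94). For Abcb11 the highest value was 0.90, with Dpf3. The 12 sums come from only 4 libraries and 4814 genes were searched, so these values are descriptions.

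Other genes of bile formation were read from pathway lists in the same hepatocyte-like nuclei. Over all genes tested by zone, 13.2% were called higher and 13.7% lower at the pericentral end, and nothing is read as particular to a list from its count. Of 11 tested genes of bile acid synthesis and conjugation, 4 rose at the pericentral end and none fell. Among them Cyp7a1, the rate-limiting enzyme of the classic pathway, rose by 3.30 on the log2 scale (SE 0.39, edgeR adjusted p = 0.013) and Cyp27a1, of the alternative pathway, by 1.51 (SE 0.14, edgeR adjusted p = 0.0012). Of 17 other basolateral transporters tested, 8 rose and 3 fell, with Slc22a3, an organic cation transporter, at 4.78 and Abcc4, a basolateral exporter of bile acids, at 3.45. Of 8 other canalicular transporters, 3 rose and 2 fell, with Abcb1b, a multidrug exporter, at 2.26 and Atp7b, the copper exporter, at −0.42. Of 21 regulators, 4 rose and 8 fell. Nr1i3, the nuclear receptor CAR, stood at 1.01 and Onecut1 at −1.28. Of 14 genes of membrane scaffolding and trafficking, 4 rose and 2 fell, among them Cldn2, a tight junction claudin, at 2.42.

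By genotype, none of these lists held a gene that passed. The smallest unadjusted p-values were 0.018 for Cyp8b1, the sterol 12-alpha-hydroxylase, with a log2 fold change of −0.59, 0.029 for Slco2a1, a prostaglandin carrier, with 0.65, and 0.030 for Ezr, which encodes ezrin, with −1.20 (edgeR, adjusted p = 0.99 for each). Ezr was near the floor in these nuclei, at 1.64, 1.11, 0.614 and 0.541 CPM. Cyp7a1 stood at −0.50. Among 21 regulators 17 were higher and 4 lower with a median of 0.19 beside −0.01 over all genes, and Hnf4a, a hepatocyte transcription factor, stood at 0.55 (edgeR unadjusted p = 0.060). Of the regulators tested, 17 of 20 were higher in endothelial-like, 13 of 16 in macrophage-like and 13 of 17 in stellate-like nuclei. Their levels in those classes were not set beside the hepatocyte reference genes, so they were not told apart from background. In endothelial-like nuclei Hnf4a read 50.7, 45.0, 52.1 and 118 CPM. The summed hepatocyte markers there read 4216, 4680, 3996 and 5966 CPM. Whether the lean is particular to hepatocyte-like nuclei was not tested.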

How the data were processed

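The files hold raw UMI counts per gene and barcode, deposited by the authors without normalization. Per the file headers they come from Cell Ranger 6.0.0, and the labels name a 3′ kit. The submitters' processing notes name GRCh38, a human build, although each of the 32285 gene IDs is a mouse one, so coordinates are printed only from RefSeq. Whether introns or strand were counted is not stated. Slco2b1 and Abcb11 overlap antisense genes that have rows of their own in the files, and if strand was not used their reads cannot be told apart.

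Barcodes with 500 or more genes and no more than 5% mitochondrial UMIs passed. Scrublet (scanpy 1.11.5, expected rate 0.06) marked doublets in each library, which were removed, and 23950 nuclei were left. Leiden clustering (python-igraph 0.11.9, resolution 1, 2000 variable genes, 30 components, 15 neighbours) gave 22 clusters, and no transporter was among the variable genes. Clusters took a class name where 3 or more of its markers were seen in 10% of nuclei and its score was 1.5 times that of any other class, a rule set after the data were seen. Clusters of 934, 47 and 67 nuclei stayed unnamed. Counts were summed by library within each class with at least 30 nuclei in every library, because nuclei are no replicates. Sums were tested with edgeR 4.0.16 in R 4.3.3 (TMM, filterByExpr, robust glmQLFit, glmQLFTest) and Benjamini-Hochberg adjustment over all genes tested, at 0.05. Zone landmarks were left out of the zone tests, and the stellate comparison was added after levels were seen. The fits were tested on simulated data. There the genotype fit in hepatocyte-like nuclei recovered 1% of 2-fold and 32% of 4-fold changes. The zone fit recovered 86.9% and 100%.

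The members and lists were chosen with earlier results of these data known. All 9 transporters are named, the genes named from other lists came from the up to 4 of smallest unadjusted p in each comparison, and the most alike genes were those of highest correlation at an average log2 CPM of 5 or more. Alternatives were DESeq2 1.42.0, RLE and total-count scaling, no filter, a replicate block, kept doublets, thinning, other zone groups and leaving out each library.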

Additional observations from a re-analysis of the deposited data

Results flagged for a closer look

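Abcb11 had log2 fold changes of opposite sign by genotype in hepatocyte-like and endothelial-like nuclei and passed the test in neither. Both KO-labelled libraries were below the Brca1-WT pair in hepatocyte-like nuclei (log2 fold change −0.12) and above it in endothelial-like nuclei (0.36, SE 0.25, edgeR adjusted p = 1.0), and the difference between the classes was not tested. In endothelial-like nuclei the gene read 81.7, 81.8, 83.5 and 128 CPM, which is 0.141 to 0.269 of its hepatocyte level. That lies within the range of the hepatocyte reference genes, so it was not told apart from background. Without KO-labelled library 2 the endothelial value was 0.069.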

How the results depend on the processing

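Counts of genes passing by genotype in hepatocyte-like nuclei were 0, 23 with DESeq2, 2 without the low-count filter and 0 to 89 when a library was left out. In endothelial-like, macrophage-like and stellate-like nuclei they were 22, 70 and 29 without the filter, and 0 to 213, 0 to 549 and 0 to 428 with a library left out. The zone by genotype test gave 2 with DESeq2, 88 without the filter, 1 with nuclei cut into 2 groups and 0 to 80 with a library left out. Each of these 5 highest counts came without KO-labelled library 1. The zone test gave 1366 after thinning, 385 without a library term and 2433 to 3154 with a library left out, against 3418. Median log2 fold changes by genotype ran from −0.78 to −0.27 for uptake and −0.23 to −0.015 for export with a library left out. The zone median of export was 0.41 with nuclei cut into 2 groups and 0.48 after thinning. With a library left out, values crossed 0 by genotype for Slco1b2 (−0.63 to 0.82), Slc10a1 (−0.78 to 0.16), Abcc2 (−0.10 to 0.13), Abcc3 (−0.57 to 0.84) and Slco2b1 in stellate-like nuclei (−0.44 to 0.084), and by zone for Slc10a1 (−0.0060 to 0.091). Abcc2 by genotype was −0.045 with total-count scaling, −0.014 after thinning and −0.013 without the Gpc3-led cluster. Abcc3 was 0.025 with DESeq2, 0.026 with RLE scaling and 0.026 without the filter, 0.016 with doublets kept and 0.015 without the mitochondrial cluster. Slc10a1 by zone was −0.034 after thinning. The cause of these shifts was not tested. Total-count scaling, leaving out the mitochondrial cluster and the stellate test were chosen after seeing the data. The labels give no pairing of libraries by replicate number. Deviations of replicate 1 from its group mean had r = −0.079 between genotypes across genes, a single contrast that cannot settle pairing. With a replicate block 0 genes passed in the genotype and zone by genotype tests, and Abcc3 was 0.069. With 2 libraries a group, the spread between libraries limits every genotype result.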
